A study of Mus musculus with 8 samples.

Results

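Coenzyme A (CoA) is the carrier to which cells attach acetate and fatty acids before they build or burn them. It is made from pantothenate, vitamin B5, in a short chain of reactions. Pantothenate kinases (PANK) phosphorylate pantothenate and set the pace of the pathway, PPCS joins cysteine to the product, and the bifunctional enzyme COASY completes the molecule. CoA is also broken down. The Nudix hydrolases NUDT7 and NUDT19 cleave it in peroxisomes, and vanins, which are pantetheinases, split pantetheine into pantothenate and cysteamine, so that the vitamin can be used again. In the liver, *Vnn1* and *Pank1* are known targets of PPAR alpha, the nuclear receptor of the fasting response.

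The genes described here are 9 of the 16540 gene symbols in the liver count table and were chosen by name, with earlier results of these data known: *Pank1*, *Pank2*, *Pank3*, *Ppcs*, *Coasy*, *Vnn1*, *Vnn3*, *Nudt7* and *Nudt19*. RNA came from 8 liver samples of *Apoe*-/- mice fed a high cholesterol diet, 4 from mice given vehicle and 4 from mice injected daily with isoginkgetin (ISOGK), at 20 mg/kg/day for 8 weeks. Each sample is taken as 1 mouse, which the labels do not state, and p-values measure only the spread between these samples. Both groups carry the *Apoe* knockout, which makes mice prone to high plasma cholesterol, and the labels give neither their age nor their sex, while the study treated mice of both sexes. The vehicle columns are headed DMSO, the solvent shown as vehicle in the study. ISOGK is a biflavonoid of *Ginkgo biloba* that the study examines as an inhibitor of ATP-citrate lyase (ACLY), the enzyme that turns citrate and CoA into acetyl-CoA. The comparison asks how the liver genes that make, recycle and degrade CoA differ between the treatment groups.

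The libraries held between 17457106 and 24461854 counts on genes. All 9 genes passed the filter on low counts, as did 12307 genes of the table. Levels are given as CPM, the usual scale of read counts relative to library size, here after TMM normalisation. Hepatocyte markers were abundant in every library, with a summed level of 152692 to 195501 CPM over 10 genes and overlapping groups. The summed markers of stellate cells, endothelium and cholangiocytes also overlapped between the groups. *Sox9*, which was higher, was the only cholangiocyte marker with an adjusted p under 0.05 in edgeR. Log2 fold changes were positive for 7 of 8 tested cholangiocyte markers. They were negative for 9 of 10 stellate cell markers and for 5 of 9 endothelial markers. Skeletal muscle markers summed to 78.9 CPM in vehicle-treated mouse 4 and to at most 0.584 CPM in each other library.

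*Vnn1* rose 2.94-fold in ISOGK-treated livers and was the only one of the 9 genes to change at an adjusted p under 0.05 (edgeR's quasi-likelihood test). The other 8 genes, *Vnn3* included, had fitted changes between -0.41 and 0.30 on the log2 scale and did not pass the test. Across all 12307 genes, 7.55% were called, 4.11% as higher and 3.44% as lower, so 1 call among 9 genes is not a result about the group. Of the 929 genes called, 506 were higher, and with library size alone as the scale 262 of 1066 were. The median log2 fold change was 0.09 over the 9 genes and 0.0018 over all tested genes. With TMM scaling in edgeR, and by DESeq2 and limma-voom, no member was called lower, while edgeR with library size alone called *Pank3* lower. At an unadjusted p under 0.05 edgeR had 3 of the 9 genes higher and 1 lower, beside 24.2% of all tested genes (1540 higher and 1433 lower). With the further requirement of an absolute log2 fold change over 1, the threshold of the study, *Vnn1* stayed called, beside 1.63% of all genes.

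**Figure D1:**
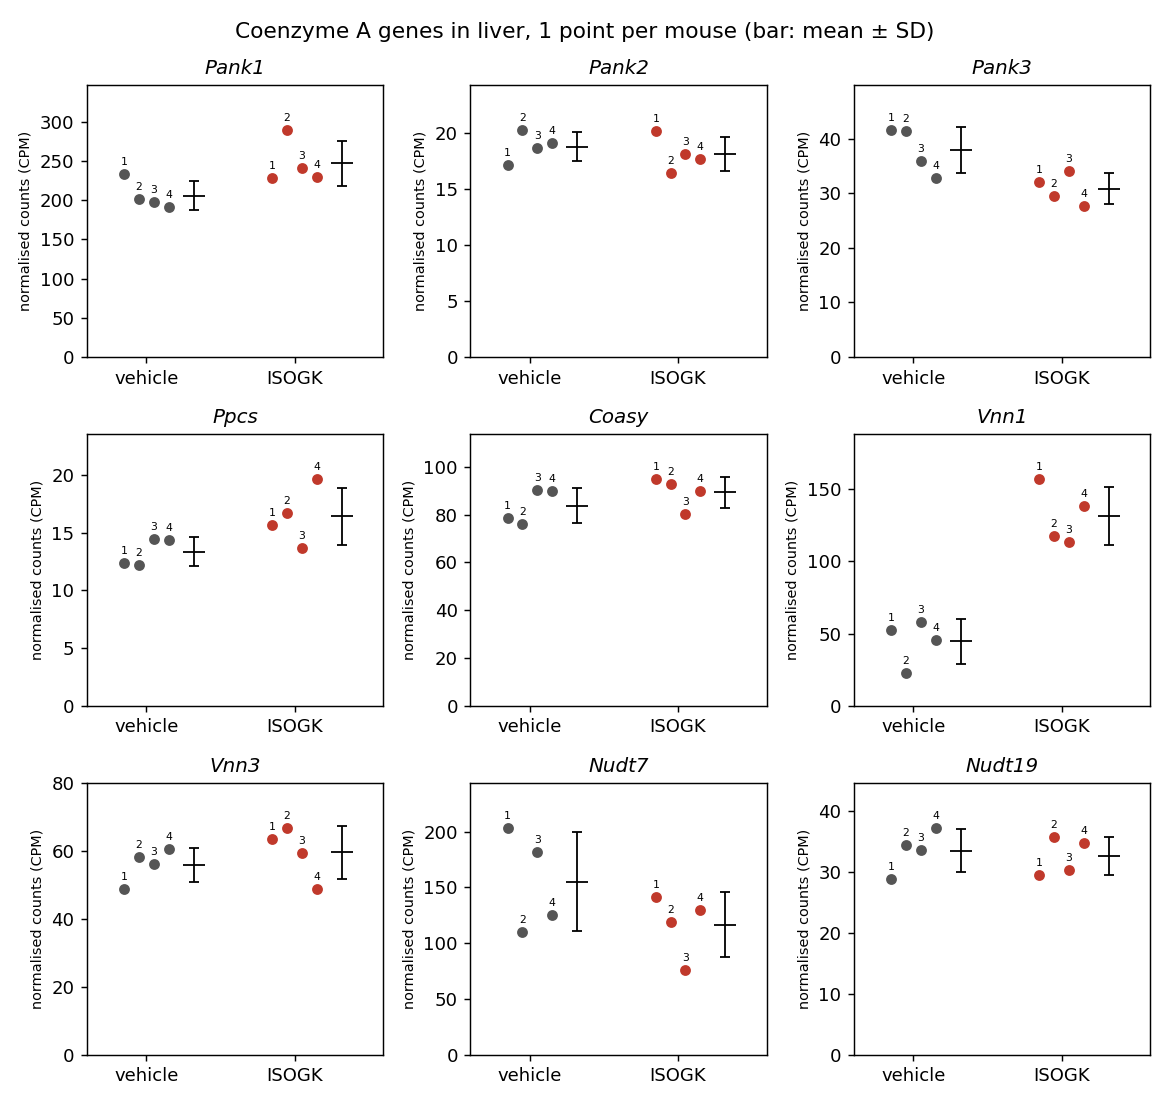
Level of each of the 9 genes in CPM (vertical axes from 0) for the 4 vehicle-treated and 4 ISOGK-treated mice, numbered as in the labels, with the mean ± SD of each group beside the points. The *Vnn1* points of the groups are apart, at 22.7 to 58.2 against 113 to 157 CPM, while those of the other 8 genes overlap.

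VNN1 is the main pantetheinase of mouse liver, and its gene lies on chromosome 10 at chr10:23894688-23905343 of GRCm38. *Vnn1* had 52.2, 22.7, 58.2 and 45.6 CPM in vehicle-treated mice 1 to 4 and 157, 118, 113 and 138 CPM in ISOGK-treated mice 1 to 4. Every ISOGK-treated mouse was thus above every vehicle-treated mouse, and the lowest vehicle value was that of mouse 2. The group means were 44.7 ± 15.5 and 131 ± 20.2 CPM (SD, n = 4 each), a log2 fold change of 1.56 with a standard error of 0.26 and a 95% interval of 0.96 to 2.15 (edgeR adjusted p = 0.0101). A two-sided exact permutation test gave p = 0.0286, the smallest that 4 mice against 4 allow. Such a separation of the groups was seen in 15.3% of all tested genes, and among the members only in *Vnn1*. The counts behind these values were 574 to 1495 per vehicle library and 1999 to 3197 per ISOGK library.

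Markers of other cells were set beside this rise. The neutrophil list (10 genes in the table, 8 tested) summed to 12.2 to 20.1 CPM with vehicle and 14.5 to 36.9 CPM with ISOGK. All 8 tested genes had a positive log2 fold change, with *S100a9* and *Ltf* called higher. The adipocyte list (6 of 10 genes in the table, none of them at 0 throughout, with *Adipoq*, *Plin1*, *Lep* and *Retn* not analysed here) summed to 114 to 139 CPM with vehicle and 146 to 172 CPM with ISOGK, without overlap, and *Pnpla2*, which hepatocytes express too, was its 1 call. The macrophage list of 10 genes summed to 1309 to 1705 CPM with vehicle and 1085 to 1369 CPM with ISOGK, with *Cd68* called lower. Their part in the result was not tested. Without vehicle-treated mouse 4, which carried the muscle RNA, the log2 fold change of *Vnn1* was 1.57 (edgeR adjusted p = 0.0338). In bulk liver, more cells of a type and more RNA per cell cannot be told apart.

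*Vnn3* encodes the second mouse vanin and is the neighbour of *Vnn1*, on the same strand at chr10:23851462-23869843. The genes are 24844 bases apart, with 0 annotated genes between them. *Vnn3* had 48.7, 58.0, 56.0 and 60.5 CPM in vehicle-treated mice 1 to 4 and 63.6, 66.7, 59.3 and 48.8 CPM in ISOGK-treated mice 1 to 4, and the groups overlapped. Its log2 fold change was 0.09 (standard error 0.11, 95% interval -0.15 to 0.34, edgeR adjusted p = 0.654), and turned to -0.03 when libraries were scaled by size alone. Reads of the 2 vanins can be told apart, since 0 of the 2414 windows of 50 bases in *Vnn1* transcripts and 0 of the 1762 in the *Vnn3* transcript occur in a transcript of another gene.

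The ratio of *Vnn1* to *Vnn3* within a library does not depend on scaling between libraries. In vehicle-treated mice 1 to 4 its log2 was 0.10, -1.35, 0.05 and -0.41, and in ISOGK-treated mice 1 to 4 it was 1.30, 0.82, 0.93 and 1.503. Vehicle-treated livers thus had about as many *Vnn1* as *Vnn3* counts or fewer, and ISOGK-treated livers had more *Vnn1* counts in all 4 mice. The mean log2 ratio rose by 1.54 (standard error 0.37), so that the neighbouring genes changed unequally (two-sided exact permutation test, p = 0.0286, adjusted p = 0.0429 over 3 ratios). As a share of the counts of both vanins, *Vnn1* went from 28.1 to 51.8% with vehicle to 63.8 to 74.0% with ISOGK.

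Pantothenate kinases catalyse the first and rate-setting step, and liver expresses 3 active forms from separate genes. Each of these genes is also the host of a microRNA on its own strand, in an intron of GENCODE M21, and all of the hosted microRNAs share a seed, bases 2 to 8 of the mature strand. *Pank1* holds Mir107 (chr19:34820687-34820773), *Pank2* holds Mir103-2 (chr2:131288052-131288137) and *Pank3* holds Mir103-1 (chr11:35782396-35782481). The mature 3p strands are printed from RefSeq (GRCm38.p6), 5′ to 3′, with the seed in capitals, to show this shared feature of the family. The microRNAs themselves were not measured by these libraries.
mmu-miR-107-3p: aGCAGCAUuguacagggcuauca
mmu-miR-103-3p: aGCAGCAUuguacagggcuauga

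*Pank1* was the kinase with the highest level and had 233, 202, 197 and 191 CPM in vehicle-treated mice 1 to 4 and 228, 289, 241 and 230 CPM in ISOGK-treated mice 1 to 4. Vehicle-treated mouse 1 lay above 2 ISOGK-treated mice, so the groups overlapped. The log2 fold change was 0.26 (standard error 0.11, 95% interval 0.03 to 0.50), and the gene did not pass the test (edgeR adjusted p = 0.1598, unadjusted p = 0.0312). With library size alone as the scale, which moved the median of all genes to -0.13, it was 0.14 (edgeR adjusted p = 0.464). *Pank3*, which encodes a cytosolic form, had 41.6, 41.4, 36.0 and 32.8 CPM in vehicle-treated mice 1 to 4 and 32.2, 29.6, 34.1 and 27.7 CPM in ISOGK-treated mice 1 to 4. Only ISOGK-treated mouse 3 reached into the vehicle range. Its log2 fold change was -0.30 (standard error 0.11, 95% interval -0.53 to -0.07, edgeR adjusted p = 0.113), and under the same other scaling it was -0.42 (edgeR adjusted p = 0.0499).

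*Pank2*, the remaining kinase gene of the members, had 17.2, 20.3, 18.7 and 19.1 CPM in vehicle-treated mice 1 to 4 and 20.2, 16.5, 18.2 and 17.7 CPM in ISOGK-treated mice 1 to 4. The groups overlapped over most of their range, with a log2 fold change of -0.05 and a 95% interval of -0.27 to 0.17 (edgeR adjusted p = 0.798). Its value is less certain than the others, since 6.02% of its windows of 50 bases are shared with *Gm14233*, a transcript that overlaps it, and *Rnf24* overlaps it on the other strand, while the use of strand in counting is not stated.

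Set against each other within a library, *Pank1* and *Pank3* did separate the groups. The log2 ratio of *Pank1* to *Pank3* was 2.48, 2.28, 2.45 and 2.54 in vehicle-treated mice 1 to 4 and 2.82, 3.28, 2.82 and 3.05 in ISOGK-treated mice 1 to 4. All ISOGK-treated mice were above all vehicle-treated mice, and the mean log2 ratio rose by 0.55 (standard error 0.12; two-sided exact permutation test, p = 0.0286, adjusted p = 0.0429 over 3 ratios). *Pank1* held 76.6 to 79.9% of the counts of the 3 kinase genes with vehicle and 81.3 to 86.2% with ISOGK. This test concerns the pair and does not say which of the 2 genes moved, and neither was called alone in edgeR with TMM. Its p is the smallest that 4 mice against 4 allow, and 15.3% of all tested genes separated the groups singly. Ratios with *Pank2* were not formed, and the adjustment over 3 ratios does not cover the choice of pairs. How often other pairs of genes separate was not tested.

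**Figure D2:**
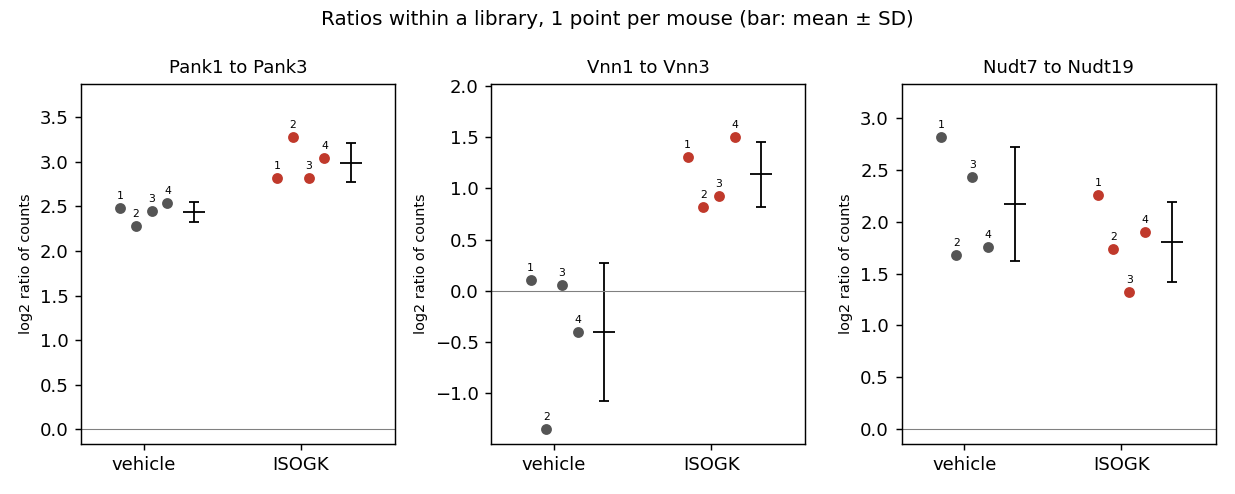
Log2 ratio of counts (prior count of 2) within each library for 3 pairs of related enzymes, with 1 numbered point per mouse and the mean ± SD of each group of 4. The groups do not overlap for *Pank1* to *Pank3* and for *Vnn1* to *Vnn3*, and overlap for *Nudt7* to *Nudt19*.

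The promoter windows of *Pank1* and *Pank3*, 250 bases before to 50 bases after the start, are shown because their ratio separated the groups. Neither gene was called alone in edgeR with TMM, and a link between promoter and level was not tested. RefSeq has 2 starts for *Pank1*, on the minus strand at chr19:34879406-34879705 and chr19:34877868-34878167, and 1 for *Pank3*, on the plus strand at chr11:35769245-35769544 (GRCm38.p6). Capitals mark matches, on either strand, to TATAAA, to the GC box GGGCGG or to CCAAT. Among all 32851 promoter windows of the same length, 13.6% hold TATAAA, 35.7% hold GGGCGG and 37.4% hold CCAAT.
Pank1, first start: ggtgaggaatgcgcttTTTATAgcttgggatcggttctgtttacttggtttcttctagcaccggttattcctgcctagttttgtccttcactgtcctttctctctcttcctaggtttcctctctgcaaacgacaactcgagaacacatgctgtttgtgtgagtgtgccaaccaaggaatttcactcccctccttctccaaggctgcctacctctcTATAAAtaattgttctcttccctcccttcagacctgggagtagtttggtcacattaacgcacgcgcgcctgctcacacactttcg
Pank1, second start: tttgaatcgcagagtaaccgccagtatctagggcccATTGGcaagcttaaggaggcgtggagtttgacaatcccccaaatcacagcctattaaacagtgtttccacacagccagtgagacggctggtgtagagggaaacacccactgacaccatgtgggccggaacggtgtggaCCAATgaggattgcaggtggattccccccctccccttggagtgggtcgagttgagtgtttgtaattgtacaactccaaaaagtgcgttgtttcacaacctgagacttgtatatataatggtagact
Pank3: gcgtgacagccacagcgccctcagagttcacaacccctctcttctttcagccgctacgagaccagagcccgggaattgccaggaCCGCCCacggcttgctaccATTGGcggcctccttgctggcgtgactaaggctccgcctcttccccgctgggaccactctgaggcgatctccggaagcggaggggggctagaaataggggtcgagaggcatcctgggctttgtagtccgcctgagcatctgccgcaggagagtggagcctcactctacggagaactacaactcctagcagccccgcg
The first *Pank1* window holds 2 TATAAA matches, the nearer of which begins 35 bases before the start, and its GC content is 48.0%. The second *Pank1* window holds 2 CCAAT matches. The *Pank3* window has a GC content of 63.0%, with 1 GC box, 1 CCAAT match and 0 TATAAA matches. The half-site of nuclear receptors such as PPAR alpha, AGGTCA on either strand, was found in 1 of the 11 windows of members, that of *Ppcs*, and in 16.3% of all windows. Its direct repeat with 1 base between the copies was found in 0 of these 11 windows and in 0.0396% of all windows. Only exact matches were counted, and a repeat this rare would be absent from almost any 11 windows. Windows of 7 of the 9 genes were matched, and those of *Vnn1* and *Coasy* were not analysed here.

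*Ppcs*, the gene of the step that adds cysteine, had 12.4, 12.2, 14.5 and 14.4 CPM in vehicle-treated mice 1 to 4 and 15.6, 16.7, 13.7 and 19.6 CPM in ISOGK-treated mice 1 to 4. ISOGK-treated mouse 3 lay among the vehicle-treated mice, and the other 3 above them. The log2 fold change of 0.30 (standard error 0.13, 95% interval 0.02 to 0.57) did not pass the test (edgeR adjusted p = 0.180) and was 0.16 with library size alone as the scale (edgeR adjusted p = 0.429). *Coasy*, whose product performs the last 2 reactions, had 76.2 to 90.4 CPM with vehicle and 80.2 to 94.9 CPM with ISOGK. These overlapped, with a log2 fold change of 0.09 and a 95% interval of -0.11 to 0.30 (edgeR adjusted p = 0.594), which turned to -0.04 with library size alone as the scale.

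NUDT7 and NUDT19 are the peroxisomal enzymes that cut CoA and its esters. *Nudt7* had 203, 110, 182 and 126 CPM in vehicle-treated mice 1 to 4 and 142, 119, 75.8 and 130 CPM in ISOGK-treated mice 1 to 4. It varied more between vehicle-treated mice than any other member but *Vnn1* relative to its mean, and mouse 2 was the lowest vehicle-treated mouse for both genes. Its log2 fold change was -0.41 with a standard error of 0.24 and a 95% interval of -0.94 to 0.12 (edgeR adjusted p = 0.329), and the groups overlapped. *Nudt19* had 28.8 to 37.2 CPM with vehicle and 29.5 to 35.7 CPM with ISOGK, a log2 fold change of -0.04 with a 95% interval of -0.27 to 0.19 (edgeR adjusted p = 0.854). An antisense gene, *B230322F03Rik*, overlaps *Nudt19*, and reads of the 2 cannot be told apart if strand was not used. The log2 ratio of *Nudt7* to *Nudt19* differed by -0.37 (standard error 0.34; two-sided exact permutation test, p = 0.343, adjusted p = 0.343 over 3 ratios), and the groups overlapped.

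**Figure D3:**
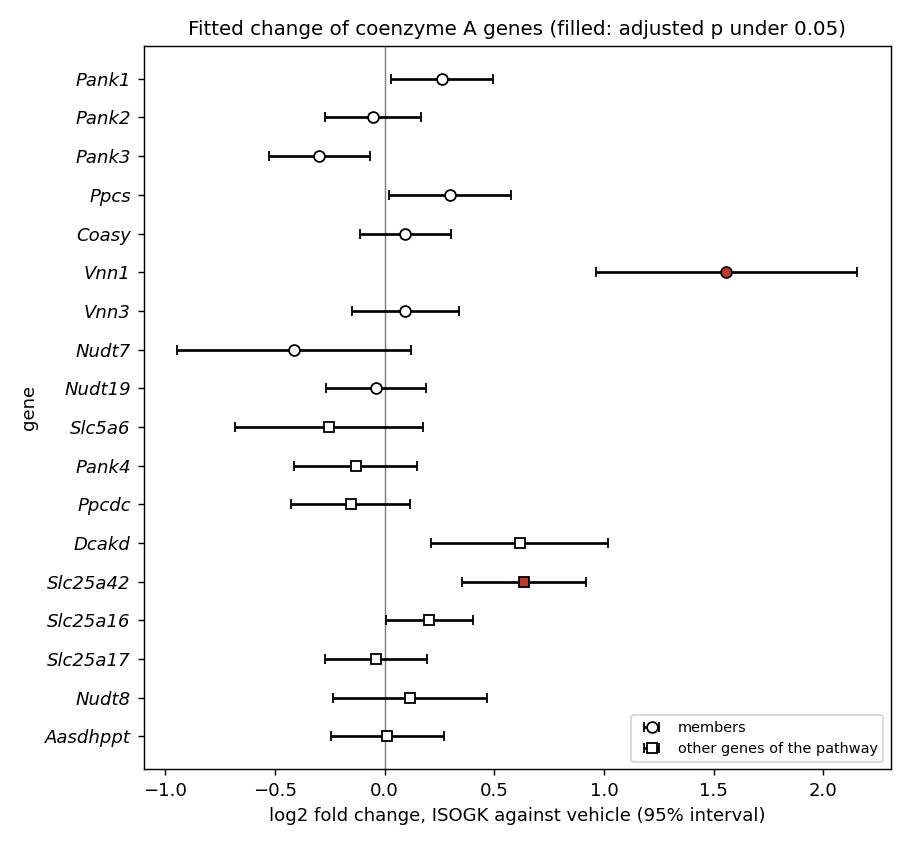
Fitted log2 fold change of ISOGK against vehicle (horizontal axis, with 95% intervals, not adjusted for the number of genes) for the 9 genes (circles) and for 9 other genes of the pathway (squares). Filled symbols, *Vnn1* at 1.56 and *Slc25a42* at 0.64, have an edgeR adjusted p under 0.05.

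Levels were compared between genes only after division by exon length, as CPM per kb over all annotated exons of GENCODE M21. In vehicle-treated livers the order of mean levels was *Vnn3* (30.8 CPM per kb), *Coasy* (29.2), *Nudt7* (27.6), *Pank1* (24.9), *Vnn1* (18.5), *Nudt19* (12.5), *Ppcs* (8.33), *Pank3* (5.15) and *Pank2* (3.83). The ranges of neighbours over the 4 mice overlapped among the first 5 genes and between *Vnn1* and *Nudt19*. *Nudt19*, *Ppcs*, *Pank3* and *Pank2* had ranges apart from each other. With ISOGK, *Vnn1* stood first, at 46.8 to 64.9 CPM per kb, above every mouse of every other member, of which the next was *Vnn3* at 26.9 to 36.8. *Vnn1* thus moved from place 5 to place 1 in the order of mean levels, while the last 4 places were the same. An exon length taken over all isoforms can exceed that of the isoform in liver, which lowers the value per kb, for example of *Nudt7* or *Pank1*.

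**Figure D4:**
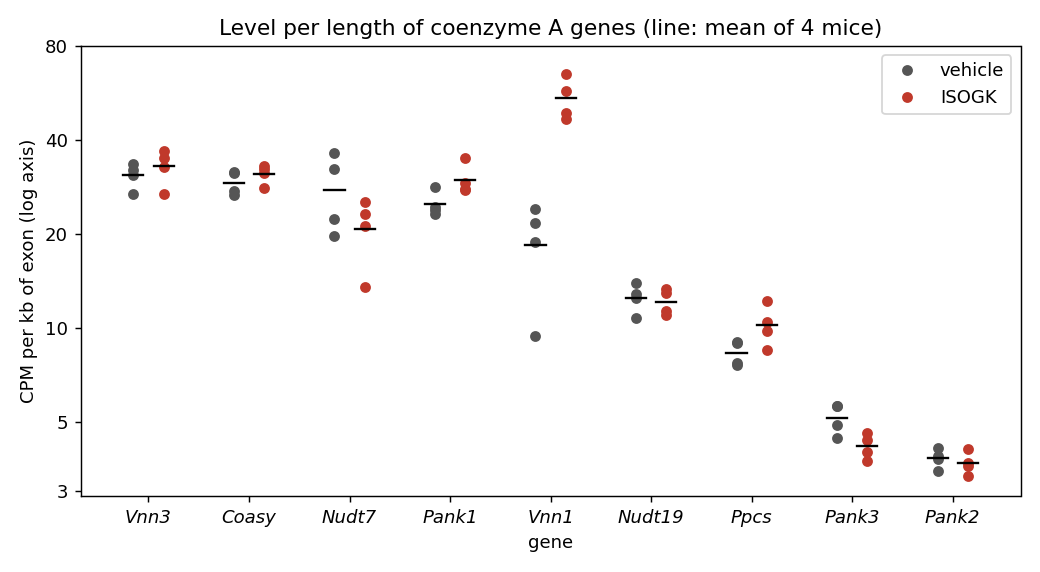
CPM per kb of exon (log axis) for the 9 genes, ordered by their vehicle mean, with 1 point per mouse and a line at each mean of 4 mice. *Vnn1* went from a mean of 18.5 to 54.4 CPM per kb, and the lowest levels in both groups are those of *Pank3* and *Pank2*.

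The 9 further genes of the pathway include *Pank4*, *Dcakd* and *Nudt8*. The others cover vitamin uptake, the remaining step of synthesis, transport of CoA and its use as a donor of phosphopantetheine. In edgeR 1 of the 9 genes was called, as higher, beside 7.55% of all tested genes. At an unadjusted p under 0.05 there were 3, all higher, beside 24.2% of all tested genes. DESeq2 called 2 of the 9. *Slc25a42*, which encodes the carrier that brings CoA into mitochondria, had 50.2, 44.8, 51.4 and 49.2 CPM in vehicle-treated mice 1 to 4 and 63.7, 97.6, 65.9 and 76.5 CPM in ISOGK-treated mice 1 to 4. All ISOGK-treated mice were higher, by 0.64 on the log2 scale (SE 0.13, edgeR adjusted p = 0.0128). Without vehicle-treated mouse 2 it missed the threshold (edgeR adjusted p = 0.0548). The median log2 fold change of these 9 genes was 0.01.

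Cysteamine, the other product of vanins, can be oxidised to hypotaurine and taurine, which liver conjugates to bile acids. On a list of 6 tested cysteamine and taurine genes, which is wider than this route, 1 was called in edgeR, as higher, beside 7.55% of all tested genes. At an unadjusted p under 0.05 there were 3, *Cdo1*, *Csad* and *Baat*, all higher, against 24.2% over the table. *Ado*, *Fmo1* and *Slc6a6* had log2 fold changes of -0.11, -0.15 and -0.22 and were not called. The groups did not overlap for 3 of the 6 genes, beside 15.3% of all tested genes. ISOGK-treated mice were above vehicle-treated mice for *Cdo1* and *Baat*, and below them for *Ado*. The list thus held changes in both directions, and no rise of the route from cysteamine is read from it. *Baat*, the gene of the enzyme that conjugates bile acids with taurine, had 218 to 258 CPM with vehicle and 278 to 344 CPM with ISOGK, with a difference of 0.39 on the log2 scale (SE 0.10, edgeR adjusted p = 0.0376). The groups did not overlap, but the call was lost in 8 of 16 alternatives, with an adjusted p of up to 0.125.

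Acyl-CoA synthetases consume CoA when they activate fatty acids. Of 17 tested genes on this list, 4 rose, *Acsl1*, *Slc27a1*, *Slc27a2* and *Slc27a4*, and 1 fell, *Acsm5*, with a median log2 fold change of 0.09 over the list. Over all tested genes edgeR called 4.11% as higher and 3.44% as lower. At an unadjusted p under 0.05 there were 9 of the 17, 5 higher and 4 lower, against 24.2% over the table. *Acsl1*, the main long-chain enzyme of liver, had 849 ± 168 CPM with vehicle and 1623 ± 308 CPM with ISOGK (SD, n = 4 each) and rose by 0.94 on the log2 scale (edgeR adjusted p = 0.00743). *Acsm5*, a medium-chain enzyme of mitochondria, had 87.5 ± 10.6 and 57.3 ± 8.17 CPM, a change of -0.61 on the log2 scale (edgeR adjusted p = 0.0116). Among the fatty acid transport proteins, which also act as synthetases, *Slc27a5* had means of 845 CPM with vehicle and 853 CPM with ISOGK. Its difference was 0.014 on the log2 scale, and it was not called in edgeR (adjusted p = 0.943). *Slc27a3* and *Slc27a6* were not tested. The called transport genes had log2 fold changes of 1.12 for *Slc27a1*, 0.44 for *Slc27a2* and 0.46 for *Slc27a4*. In edgeR their adjusted p-values were 0.0293, 0.0417 and 0.0315. The calls of these 3 genes were each lost in 6 or 7 of 16 alternatives, and those of *Acsl1* and *Acsm5* in 0. *Acly*, the gene of the CoA-using enzyme that ISOGK is studied against, had 106 to 129 CPM with vehicle and 71.4 to 86.5 CPM with ISOGK. It changed by -0.60 on the log2 scale (SE 0.10, edgeR adjusted p = 0.00591). This is RNA: in livers of *Apoe*-/- mice the study reports lower ACLY activity but no significant change of ACLY protein.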

How the data were processed

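Liver RNA of *Apoe*-/- mice was sequenced in 8 samples, 4 per group. The authors aligned single-end reads with HISAT2 to the mouse genome (mm10 in the submitters' processing notes) and obtained gene-level counts from StringTie. Whole-number counts were deposited, with no scaling applied. The annotation release and the use of strand are not given in the sources used here. Groups were taken from the sample titles. The labels name separate samples and not separate cages or days.

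Counts were filtered with filterByExpr (minimum count 10, minimum total 15), scaled with TMM and tested over the whole table in edgeR 4.0.16 under R 4.3.3 (quasi-likelihood, robust option), with Benjamini-Hochberg adjustment over 12307 genes. Single values were tested over mice by exact permutation, two-sided, of log2 CPM with a prior count of 2. Intervals of fold changes use the degrees of freedom of that fit. Libraries held 17457106 to 24461854 counts. Their precision from depth covers counting error only. The chi-square per gene between libraries of a group was 17.1 or more, where about 1 is sampling noise. Alternatives were DESeq2 1.42.0, limma-voom (limma 3.58.1), other scalings and filters, the replicate number as a block, and each mouse left out. Methods were tested on simulated data. Coordinates are GENCODE M21 (GRCm38), and promoters and microRNAs RefSeq.

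The members and lists were chosen with earlier results of these data known. Named genes were the 9 members, *Acly*, up to 6 called genes per list, and the 3 genes most like *Vnn1* and *Pank1*. An item under this rule is not reported here.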

Additional observations from a re-analysis of the deposited data

How the results depend on the processing

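*Vnn1* was called higher, and was the only member called higher, in all 16 alternatives, with a log2 fold change from 1.34 to 1.71, the lowest without vehicle-treated mouse 2, and an adjusted p from 6.41e-09 (DESeq2) to 0.0377. With library size alone as the scale, which moved the median of all genes to -0.13, 2 members were called, 1 of them lower (*Pank3*), and the log2 fold changes of *Coasy* and *Vnn3* turned to -0.040 and -0.032, while those of *Pank2* and *Nudt19* were -0.18 each. With TMM, that of *Nudt19* turned to 0.014 without vehicle-treated mouse 4 and to 0.0043 without ISOGK-treated mouse 1, and ranged from -0.106 to 0.014 with each mouse left out. Over all genes, 929 were called, against 1421 by DESeq2 and 379 to 1235 with each mouse left out, where the lowest number was without vehicle-treated mouse 2 and the highest without ISOGK-treated mouse 3. With each mouse left out, the number of members called stayed at 1, with 1 higher and 0 lower, and the log2 fold change of *Nudt7* ranged from -0.54 to -0.25. The cause was not tested.

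On the list of other CoA pathway genes, 2 were called by DESeq2, and 0 to 2 with each mouse left out (0 without vehicle-treated mouse 2, 2 without vehicle-treated mouse 3 or ISOGK-treated mouse 3). On the cysteamine and taurine list, 0 were called with library size alone, and 0 to 1 with each mouse left out (0 without any 1 vehicle-treated mouse or ISOGK-treated mouse 2 or 4). Of the acyl-CoA synthetases, 3 were called with library size alone, and 2 to 5 with each mouse left out (2 without vehicle-treated mouse 2 or 4, and 3 without vehicle-treated mouse 1 or 3 or ISOGK-treated mouse 2). The cause was not tested.

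The differences of the log2 ratio ranged from 0.46 to 0.61 for *Pank1* to *Pank3*, from 1.22 to 1.70 for *Vnn1* to *Vnn3* and from -0.53 to -0.15 for *Nudt7* to *Nudt19*. Each kept its side of the threshold with another prior count (0.5) and without each mouse. Groups that do not overlap stay apart when a mouse is left out. For *Pank1* to *Pank3* and *Vnn1* to *Vnn3* the unchanged permutation p of 0.0286 is therefore no further support.

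Nothing in the labels pairs mice with the same replicate number. The correlation of their deviations from the group means was 0.013, -0.014, 0.075 and 0.085 for numbers 1 to 4. Between mice with different numbers it ranged from -0.207 to 0.219. A shared cage or day was not tested. With the replicate number as a block, 827 genes were called in place of 929, 1 member among them (*Vnn1*, log2 fold change 1.62), with 0 cysteamine and taurine genes and 3 acyl-CoA synthetases.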

Other observations

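Apart from the difference between the groups, genes that varied much like *Vnn1* over the 8 mice, after the mean of each group was removed from log2 CPM, included *Fbxl21* and *D630045J12Rik* (Pearson's r of 0.98 and 0.97). For *Pank1* the 3 most alike were *Nufip2*, *Plppr2* and *Ywhaz* (r of 0.96 each). These are the extremes of 12307 genes over 8 libraries that share their scaling, given as a description. Their edgeR adjusted p-values were 0.216 to 0.668.

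On the cysteamine and taurine list, *Csad*, the gene of cysteine sulfinate decarboxylase, had 35.3, 33.2, 84.3 and 112 CPM in vehicle-treated mice 1 to 4 and 110, 180, 127 and 146 CPM in ISOGK-treated mice 1 to 4, a log2 fold change of 1.09 that did not pass the test (edgeR adjusted p = 0.173). It was chosen after its values were seen, for the spread between vehicle-treated mice.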
